A study of Mus musculus with 16 samples.

Results

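Caveolae are small flask-shaped pits of the plasma membrane, and 8 genes that encode their coat and neck proteins were described here in cells of mouse skin. The genes *Cav1*, *Cav2*, *Cavin1*, *Cavin2*, *Cavin3*, *Ehd2*, *Pacsin2* and *Pacsin3* were taken by symbol from a table of 55487 gene IDs. All 8 had reads in each of 16 libraries and passed the filter on low counts in every comparison. RNA was sequenced in bulk from skin cells sorted on CD45, the surface protein of leukocytes, which gave an immune fraction with CD45 and a stromal fraction without it. Stretched cells were taken 6 h after hypobaric pressure, a suction applied to the skin, and control cells came from unstretched skin of the same body area. The 4 groups of 4 libraries were stromal control (libraries 1 to 4), stromal stretched (5 to 8), immune control (3, 4, 5 and 6) and immune stretched (1, 2, 7 and 8). The labels give no strain, age, sex or genotype and do not say whether libraries are separate animals, so the p-values cover the spread of these libraries alone, which may be technical.

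Caveolins insert as a hairpin into the inner leaflet of the membrane, and cavins are soluble proteins that assemble on top of them into a striated coat. EHD2, an ATPase, sits as a ring at the neck, while pacsins (syndapins) carry a membrane-bending F-BAR domain. Caveolae are abundant in endothelial cells, adipocytes, fibroblasts and muscle, and they are known to flatten when membrane tension rises, which gives membrane to a stretched cell and frees cavins into the cytosol.

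Depth was between 2645421 and 26944965 counts per library and differed with treatment. Immune controls held at most 6662268 counts and stretched immune libraries at least 7018743, while stromal controls held at most 20467010 and stretched stromal libraries at least 21955174. Immune control 4 and stretched stromal libraries 7 and 8 stood apart, with 35303, 35821 and 32977 genes detected against at most 25955 in the other libraries. Stretched immune library 2 also stood apart, with 33701 CPM (counts scaled to a common library size) summed over 9 neutrophil genes. The sort matched its labels: *Ptprc*, which encodes CD45, was at 0.0644 to 3.39 CPM in stromal and 219.8 to 703 CPM in immune libraries. The immune fraction held transcripts of other cells as well. Its 12 fibroblast markers summed to 1446 to 10363 CPM, against 45072 to 67860 CPM in the stromal fraction, and its 13 blood endothelial markers summed to 90.2 to 1027 CPM, against 104.3 to 326.6 CPM. In bulk samples fewer cells of a type and less RNA per cell cannot be told apart.

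The 3 promoters below are shown because they belong to genes that the sort separated differently: *Cav1* was lower in immune cells, whereas no difference was called for its chromosomal neighbour *Cav2* or for *Cavin2*. *Cav2* and *Cav1* lie on the same strand of chromosome 6, with 17219 bases between the end of *Cav2* and the start of *Cav1*. Each sequence is the 250 bases before the RefSeq transcription start (GRCm38.p6, plus strand, 5′ to 3′), at chr6:17306085-17306334 for *Cav1*, chr6:17280935-17281184 for *Cav2* and chr1:51288876-51289125 for *Cavin2*. Capitals mark motif matches on either strand.
Cav1: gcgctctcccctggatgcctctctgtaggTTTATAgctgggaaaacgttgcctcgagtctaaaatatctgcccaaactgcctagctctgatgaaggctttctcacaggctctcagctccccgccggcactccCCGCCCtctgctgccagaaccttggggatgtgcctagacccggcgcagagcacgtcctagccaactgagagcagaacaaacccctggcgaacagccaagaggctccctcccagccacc
Cav2: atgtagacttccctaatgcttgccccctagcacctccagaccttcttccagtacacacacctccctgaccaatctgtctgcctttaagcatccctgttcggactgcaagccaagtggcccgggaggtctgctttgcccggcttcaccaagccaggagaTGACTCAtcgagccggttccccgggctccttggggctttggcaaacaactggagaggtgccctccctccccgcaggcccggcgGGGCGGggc
Cavin2: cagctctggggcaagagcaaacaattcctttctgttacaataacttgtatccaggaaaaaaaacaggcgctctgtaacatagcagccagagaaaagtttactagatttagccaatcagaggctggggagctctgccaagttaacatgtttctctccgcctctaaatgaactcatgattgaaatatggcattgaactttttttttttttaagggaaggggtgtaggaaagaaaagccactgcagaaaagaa
The motifs searched were GGGCGG (GC box), TATAAA (the box named for its letters), GGAATG (the core bound by TEAD factors), TGANTCA (AP-1) and the CArG box by name. They were found in 32.7%, 12.4%, 12.6%, 6.75% and 1.47% of 32851 RefSeq windows of the same length. RefSeq gives *Cav1* a second start, at whose window (chr6:17307390-17307639) none of the letters were found. The *Cav1* window shown held 1 GC box and 1 TATAAA, both on the opposite strand, and the *Cav2* window held 1 GC box and 1 AP-1 match. None of these letters were in the *Cavin2* window, which was 40.4% G or C, against 59.6% for *Cav1*, 62% for *Cav2* and a median of 52.4% over all windows. No binding or accessibility was measured, so a match is a description of the letters alone. RefSeq windows were matched for 7 of the 8 genes, the exception being *Cavin3*.

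Per unit of transcript length, 3 genes made up most of the caveolar transcripts of stromal cells. In stromal controls *Cavin3* was at 507 ± 129 CPM per kb of its longest transcript, *Cav1* at 169.7 ± 64.0 and *Cavin1* at 160.01 ± 22.2 (SD, n = 4). The other 5 genes were between 7.83 and 16.4 CPM per kb. *Cavin3* exceeded *Cav1* in all 4 libraries without overlap of their ranges, and *Cavin1* exceeded *Pacsin2*, the next in order, likewise. The ranges of *Cav1* and *Cavin1* overlapped, as did those of each pair of neighbours from *Pacsin2* down to *Ehd2*, *Cav2*, *Pacsin3* and *Cavin2*.

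The order differed in the other groups. In stretched stromal libraries *Cavin3* was at 257 ± 92.1 and *Cav1* at 202 ± 71.2 CPM per kb, with overlapping ranges, and *Cavin1* at 133 ± 22.5. As a share of the summed per-length level of the 8 genes, *Cavin3* held 52.9% to 61% in stromal controls and 32.8% to 42.5% in stretched stromal libraries. The corresponding shares of *Cav1* were 15.3% to 22.4% and 24.8% to 33%. In immune controls *Cavin1* came first at 84.9 ± 54.7 CPM per kb, followed by *Cavin3* at 55.3 ± 45.2 and *Cav1* at 39.9 ± 30.4. In stretched immune libraries *Cavin3* led again at 68.8 ± 39.1, and *Cavin1* came after *Cav1* at 36.5 ± 15.8. All neighbours in both immune orders overlapped. *Ehd2* was last in both immune groups, at 2.29 ± 1.16 and 2.59 ± 0.828 CPM per kb.

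**Figure D1:**
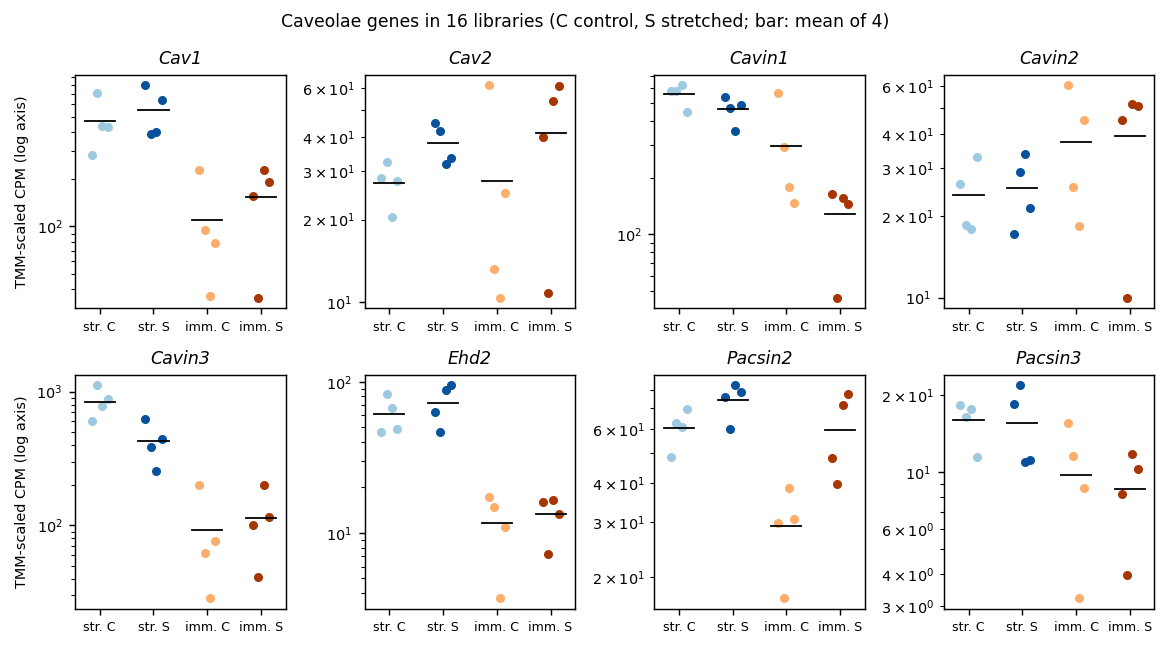
Counts scaled to a common library size (CPM, over all 16 libraries, log axis) of the 8 caveolae genes in stromal (str.) and immune (imm.) libraries of control (C) and stretched (S) skin; each point is 1 library and each bar the mean of 4. Cav1, Cavin3 and Ehd2 are lower in the immune groups, Cav2 and Cavin2 spread over the stromal range, and 1 stretched immune library is low for most genes.

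The first question was whether stretch changed these genes in stromal cells. In the edgeR quasi-likelihood test, none of the 8 was called at an adjusted p under 0.05, while 4.98% of 16074 genes were called (329 higher and 471 lower). The median log2 fold change of the 8 was 0.18, against 0.01 over all genes tested, and 5 of the 8 values were positive. Members are given below as CPM scaled over all 16 libraries, and fold changes come from the fit of the 8 stromal libraries.

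*Cav1* encodes caveolin-1, the scaffold protein without which non-muscle caveolae do not form. It lies on chromosome 6 from 17306335 to 17341452 (plus strand, GRCm38, as are all gene positions below). *Cav1* was at 286 CPM, 708 CPM, 438 CPM and 432 CPM in stromal controls 1 to 4, and at 793 CPM, 390.3 CPM, 397 CPM and 635 CPM in stretched libraries 5 to 8. The groups overlapped widely, with the highest control above 3 of the 4 stretched libraries. The log2 fold change was 0.26 ± 0.31 (SE, edgeR adjusted p = 0.639). *Cav2* (chromosome 6, 17281185 to 17289115, plus strand) encodes caveolin-2, which joins caveolin-1 in mixed oligomers and needs it to reach the cell surface. It was at 28.4 CPM, 32.5 CPM, 20.4 CPM and 27.7 CPM in the controls and at 44.8 CPM, 41.9 CPM, 32.0 CPM and 33.4 CPM in the stretched libraries. Scaled over the stromal libraries alone, all 4 stretched values lay above the 4 controls, which held for 7.87% of genes in that direction, whereas on the 16-library scale stretched library 7 fell just below control 2. The log2 fold change of *Cav2* was 0.49 ± 0.19 and did not pass the test (edgeR adjusted p = 0.131).

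*Cavin1*, also known as polymerase I and transcript release factor, encodes the cavin that the whole coat depends on (chromosome 11, 100956733 to 100970887, minus strand). It was at 581 CPM, 583 CPM, 624 CPM and 446 CPM in stromal controls and at 543 CPM, 473 CPM, 356 CPM and 489 CPM in stretched libraries. The highest values were controls, but control 4 was below 3 stretched libraries. The log2 fold change was -0.26 ± 0.20 (edgeR adjusted p = 0.435). *Cavin2* (chromosome 1, 51289126 to 51302960, plus strand) encodes serum deprivation-response protein, which helps to bend the coat. Its stromal controls were at 26.3 CPM, 18.6 CPM, 17.8 CPM and 33.1 CPM and its stretched libraries at 17.2 CPM, 29.1 CPM, 33.9 CPM and 21.4 CPM. The groups covered the same range, with a log2 fold change of 0.10 ± 0.27 (edgeR adjusted p = 0.849).

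*Cavin3* (chromosome 7, 105480083 to 105482300, minus strand), which encodes protein kinase C delta-binding protein, showed the largest stromal difference among the 8. It was at 599 CPM, 1111 CPM, 778 CPM and 885 CPM in controls and at 625 CPM, 388 CPM, 255 CPM and 439.6 CPM in stretched libraries. The other 3 controls lay above all stretched libraries, while control 1 lay just below stretched library 5. The mean on the scale of the stromal fit was 840.5 ± 210 CPM in controls and 427 ± 148 CPM in stretched libraries (SD, n = 4). The log2 fold change was -0.98 ± 0.29, lower than that of all but 4.58% of genes, with an edgeR adjusted p of 0.065.

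The call on *Cavin3* moved with the settings. It was called with DESeq2 (adjusted p = 0.0126), limma-voom (0.0144), no filter (0.0306), a stricter filter (0.047) and in edgeR without stretched library 5 (0.0346). In these 5 settings 15.9%, 22.4%, 5.16%, 11.6% and 9.54% of all genes were called, respectively. It was not called in the other 14, and its log2 fold change ran from -1.22 to -0.59 over all 19. The value nearest 0 came with the detected-gene number added to the model (-0.59, edgeR adjusted p = 0.608). Without stretched libraries 7 and 8, which detected the most genes, it was -0.75 (0.354). With offsets for transcript length and GC content it was -0.82 (0.122). *Cavin3* has the shortest transcript of the 8, at 1662 bases.

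*Ehd2* (chromosome 7, 15946958 to 15967567, minus strand) was at 46.8 CPM, 83.4 CPM, 66.9 CPM and 48.7 CPM in stromal controls and at 62.7 CPM, 46.4 CPM, 88.1 CPM and 94.6 CPM in stretched libraries. The highest and the lowest library were both stretched, with a log2 fold change of 0.26 ± 0.27 (edgeR adjusted p = 0.568). *Pacsin2* (chromosome 15, 83375607 to 83464606, minus strand), the broadly expressed pacsin, was at 48.6 CPM, 62.5 CPM, 60.9 CPM and 69.7 CPM in controls and at 75.9 CPM, 60.04 CPM, 82.8 CPM and 78.8 CPM in stretched libraries. In all, 3 stretched libraries exceeded all controls, with a log2 fold change of 0.31 ± 0.18 (edgeR adjusted p = 0.282). *Pacsin3* (chromosome 2, 91255954 to 91264679, plus strand), the pacsin of muscle caveolae, ranged over 11.5 to 18.3 CPM in controls and 10.98 to 21.8 CPM in stretched libraries. Its log2 fold change of -0.03 ± 0.26 had an adjusted p of 0.962 in edgeR. Skeletal muscle markers had higher estimates after stretch, unlike *Pacsin3*. All 11 tested had positive log2 fold changes, and 3 were called higher in stretched stromal libraries, as were 329 of 16074 genes. These 3 lay near the threshold (edgeR adjusted p from 0.0424 to 0.0466). The sum over the 12 was 579.6 to 1425 CPM in controls and 1015 to 2236 CPM in stretched libraries, with overlap. The 12 pericyte and smooth muscle markers summed to 121 to 204 CPM in controls and 229 to 291 CPM in stretched libraries, without overlap. Of these 1, *Pdgfrb*, was called higher (0.77 ± 0.19, edgeR adjusted p = 0.0483) and is named here after its value was seen. On omission of stromal control 1, 2 or 3 or of stretched library 7 or 8 no gene was called. The marker calls did not hold there. The part of muscle cells and pericytes in the values of the 8 genes was not tested.

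**Figure D2:**
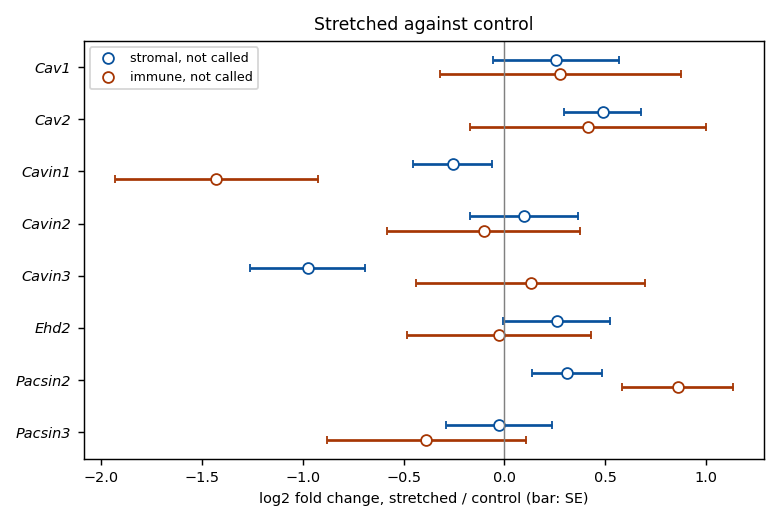
Log2 fold change of stretched against control libraries for each caveolae gene (bars, SE from edgeR; 4 libraries per group) in the stromal and the immune fraction. No gene passed the test in either fraction; stromal Cavin3 lies at -0.98 and immune Cavin1 at -1.43, and the immune bars are wider.

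The second question was whether stretch changed the genes in the immune fraction. No member was called, and 0% of 14183 genes were called by edgeR (smallest adjusted p = 0.134), although 2467 had an unadjusted p under 0.05 and DESeq2 and limma-voom called 781 and 888. No member had groups without overlap, against 11.9% of all genes. Of the log2 fold changes, 4 were positive and 4 negative, with a median of 0.05.

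*Cavin1* and *Pacsin2* showed the largest differences there. *Cavin1* was at 567 CPM, 292 CPM, 179.1 CPM and 147 CPM in immune controls 3, 4, 5 and 6, and at 165 CPM, 45.7 CPM, 155 CPM and 144 CPM in stretched libraries 1, 2, 7 and 8. Controls 3, 4 and 5 exceeded all stretched libraries, and control 6 lay among them. The log2 fold change was -1.43 ± 0.50 (edgeR adjusted p = 0.216). *Pacsin2* was at 29.8 CPM, 17.1 CPM, 38.8 CPM and 30.8 CPM in controls and at 48.3 CPM, 39.9 CPM, 71.9 CPM and 77.7 CPM in stretched libraries. On this scale all stretched libraries lay above all controls, while the groups overlapped on the scale of the immune libraries alone. Its log2 fold change was 0.86 ± 0.28 (edgeR adjusted p = 0.197). *Pacsin2* passed with limma-voom (adjusted p = 0.0443, with 6.26% of genes called) and with all 16 libraries in 1 edgeR fit (0.0418, with 3.65% called), and in none of the other 16 settings.

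The other members varied widely between immune libraries. *Cav1* was at 229 CPM, 94.9 CPM, 36.3 CPM and 78.0 CPM in controls and at 156 CPM, 35.1 CPM, 229 CPM and 193 CPM in stretched libraries. The lowest library of each group differed from its highest by several fold, and the log2 fold change was 0.28 ± 0.60 (edgeR adjusted p = 0.831). *Cav2* was at 61.6 CPM, 13.2 CPM, 10.4 CPM and 24.9 CPM in controls and at 39.9 CPM, 10.8 CPM, 54.1 CPM and 61.1 CPM in stretched libraries, with a log2 fold change of 0.42 ± 0.59. *Cavin3* was at 201 CPM, 62.1 CPM, 28.7 CPM and 76.3 CPM in controls and at 102 CPM, 41.6 CPM, 199.1 CPM and 115 CPM in stretched libraries, with a log2 fold change of 0.13 ± 0.57. Control 3 was the highest control for all 3 genes, and stretched library 2 was the lowest stretched library. *Cavin2*, *Ehd2* and *Pacsin3* had log2 fold changes of -0.10 ± 0.48, -0.03 ± 0.46 and -0.39 ± 0.49.

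Marker sums of other cells had the order of the caveolae gene sum in immune controls, but not throughout the stretched immune libraries. The 8 genes summed to 1197 CPM, 870.2 CPM, 287 CPM and 454 CPM in immune controls 3, 4, 5 and 6. The 13 blood endothelial markers summed to 1027 CPM, 874 CPM, 154 CPM and 447 CPM in the same libraries, and the 12 fibroblast markers to 7542 CPM, 5395 CPM, 1568 CPM and 3003 CPM. All 3 sums had the same order over the controls. In stretched immune libraries 1, 2, 7 and 8 the caveolae genes summed to 552 CPM, 133 CPM, 743 CPM and 623 CPM, the endothelial markers to 445 CPM, 90.2 CPM, 296 CPM and 285 CPM, and the fibroblast markers to 8126 CPM, 1446 CPM, 9537 CPM and 10363 CPM. Library 2, in which neutrophil transcripts were high, was lowest in all 3 sums. The highest was library 7 for the caveolae genes, library 1 for the endothelial and library 8 for the fibroblast markers. Between the immune groups, 11 of 13 blood endothelial markers had a negative and 11 of 12 fibroblast markers a positive log2 fold change, with medians of -0.84 and 0.86 and 0 called. Their part in the values of the 8 genes was not tested.

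Whether the stretch effect differed between fractions was tested as an interaction over all 16 libraries. None of the 8 was called, with 0% of 18295 genes called by edgeR (4232 had an unadjusted p under 0.05, and DESeq2 and limma-voom called 1625 and 1453). The difference, immune minus stromal, was 1.30 ± 0.72 for *Cavin3* (edgeR adjusted p = 0.287), -0.95 ± 0.58 for *Cavin1* (0.332) and 0.73 ± 0.37 for *Pacsin2* (0.243).

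Ratios within a library do not depend on its scale factor, so each other gene was set against *Cav1*. Log2 ratios of counts were compared between stretched and control libraries with a two-sided exact permutation test, 7 ratios in each fraction, for which 0.0286 is the smallest p that 4 against 4 can give. In stromal controls *Cavin3* had 0.65 to 1.07 log2 units more counts than *Cav1*, and in stretched libraries -0.64 to -0.01. The groups did not overlap, and the mean difference was -1.27 (exact permutation p = 0.0286, Benjamini-Hochberg adjusted over the 14 ratios p = 0.2). In the immune fraction the *Cavin1* to *Cav1* log2 ratio was 0.91 to 2.30 in controls and -0.56 to 0.38 in stretched libraries. This difference of -1.67 had the same exact permutation p of 0.0286 and adjusted p of 0.2. The other 12 ratios had exact permutation p values from 0.114 to 0.914. The stretched stromal *Cavin3* to *Cav1* ratios lay in the range of the immune libraries, which were at -0.61 to -0.03 in controls and -0.75 to 0.24 after stretch.

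**Figure D3:**
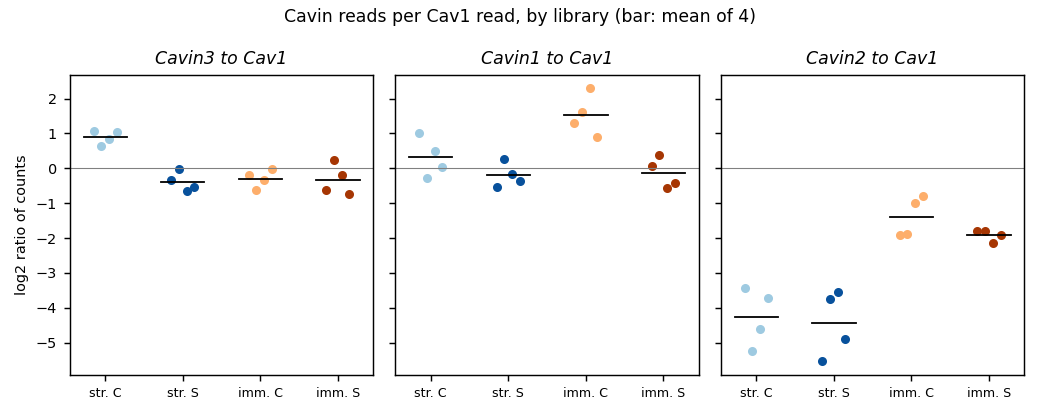
Log2 ratio of counts of 3 cavin genes to Cav1 in each library (points; bar, mean of 4) of stromal (str.) and immune (imm.) control (C) and stretched (S) groups. Cavin3 to Cav1 in stromal controls (0.65 to 1.07) and Cavin1 to Cav1 in immune controls (0.91 to 2.30) lie above their stretched groups; Cavin2 to Cav1 is lower in stromal than in immune libraries.

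The third question was how the genes differed between the sorted fractions. In control skin 4 of the 8 were called lower in immune than in stromal cells, with 22.8% of 15142 genes called lower and 26.6% higher. The log2 fold change of *Cavin3* was -3.11 ± 0.52 (edgeR adjusted p = 0.000665), that of *Ehd2* -2.28 ± 0.41 (0.00101), that of *Cav1* -1.99 ± 0.50 (0.00712) and that of *Pacsin2* -0.95 ± 0.26 (0.0104). All 4 had immune controls below all stromal controls, as did 23.7% of genes. *Cavin1* had a log2 difference of -0.81 ± 0.40 (0.115), *Pacsin3* of -0.61 ± 0.42 (0.254), *Cav2* of 0.10 ± 0.47 (0.875) and *Cavin2* of 0.74 ± 0.36 (0.112), none of which passed. *Cavin1* was called in 2 of 18 settings, limma-voom (-1.41, adjusted p = 0.00214) and the omission of immune control 3 (-1.37, edgeR adjusted p = 0.00779). These settings called 8814 of 15142 and 8102 of 16707 genes. Immune control 3 had the highest fibroblast and endothelial sums of the immune controls, and the part of these cells was not tested. *Pacsin2* was not called with offsets for transcript length and GC content (-0.73, 0.069).

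In stretched skin 5 of the 8 were called lower, with 25.1% of 17116 genes called lower and 23.9% higher. They were *Ehd2* with a log2 fold change of -2.59 ± 0.33 (edgeR adjusted p = 0.000206), *Cavin3* with -2.03 ± 0.44 (0.00431), *Cavin1* with -2.0 ± 0.37 (0.00199), *Cav1* with -1.98 ± 0.50 (0.00886) and *Pacsin3* with -0.98 ± 0.35 (0.0425). On the scale of the stretched libraries alone all 5 were without overlap, as were 25.6% of genes in the lower direction. On the 16-library scale immune library 7 (11.7 CPM of *Pacsin3*) lay above stromal libraries 7 and 8 (10.98 and 11.2 CPM). *Pacsin2* (-0.46 ± 0.25, 0.147), *Cavin2* (0.50 ± 0.44, 0.364) and *Cav2* (0.00 ± 0.41, 0.999) did not pass. The call on *Pacsin3* was lost in 9 of 19 settings, among them the omission of immune library 1, 2 or 8 or of stromal library 5 or 6 (edgeR adjusted p from 0.0568 to 0.116). Without immune library 2, *Cavin2* was called higher in immune cells (0.88, edgeR adjusted p = 0.0138), as it was with limma-voom (0.85, adjusted p = 0.0182). These settings called 8222 of 17885 and 9892 of 17116 genes in either direction. In control skin *Cavin2* was called in 3 of 18 settings. They were limma-voom (0.99, adjusted p = 0.0125), the stricter filter (0.91, edgeR adjusted p = 0.0452) and the omission of immune control 5 (0.92, 0.0471). These called 8814 of 15142, 5887 of 11091 and 7053 of 16644 genes.

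**Figure D4:**
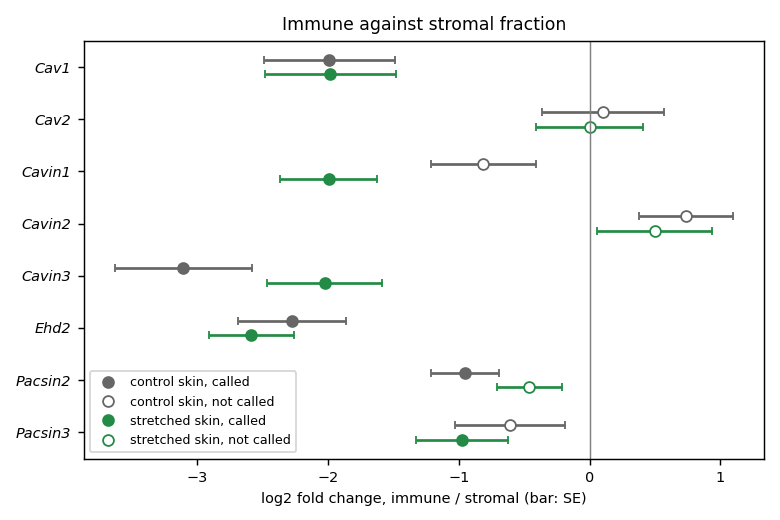
Log2 fold change of immune against stromal libraries for each caveolae gene in control and stretched skin (bars, SE from edgeR; 4 libraries per group; filled points passed the test). Cav1, Cavin3 and Ehd2 are called lower in both, and Cav2 and Cavin2 lie at or above 0 in both.

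Over both treatments *Cav1*, *Cavin3* and *Ehd2* separated the fractions without overlap on the 16-library scale. In the single comparisons, each on its own scale, 48.4% of genes in control and 49% in stretched skin did so in either direction. Immune libraries were the lower ones, as for these genes, in 23.7% and 25.6% of all genes. The share over both treatments was not computed, so whether the separation of these genes is unusual was not tested. The highest immune and lowest stromal libraries were at 229 and 286 CPM for *Cav1* and at 201 and 255 CPM for *Cavin3*. *Ehd2* was at 17.4 CPM, 14.8 CPM, 3.71 CPM and 11 CPM in immune controls and at 16.02 CPM, 7.27 CPM, 16.5 CPM and 13.3 CPM in stretched immune libraries. The highest immune library was thus well below the lowest stromal one, at 46.4 CPM. *Cavin2*, which did not pass in either sort comparison, was at 60.6 CPM, 25.6 CPM, 18.3 CPM and 45.1 CPM in immune controls and at 45.3 CPM, 9.98 CPM, 51.8 CPM and 50.8 CPM in stretched immune libraries. Of the 8 immune libraries 5 were above the stromal range of 17.2 to 33.9 CPM, and stretched library 2 was below it. On the 16-library scale the mean immune level was 156% of the stromal level for *Cavin2* and 101% for *Cav2* in control skin, but 23.5% for *Cav1*, 19.1% for *Ehd2* and 10.9% for *Cavin3*. In stretched skin the same shares were 155%, 109%, 27.7%, 18.2% and 26.8%. Scaled to the library total instead, *Cavin2* was at 188% and 135% and *Cav2* at 116% and 96.8%, so the direction for *Cav2* in stretched skin turned with the scaling.

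The balance between *Cav1* and *Cav2* and between *Cavin1* and *Cavin2* differed accordingly. *Cav1* exceeded *Cav2* per unit of length by 17.2 ± 5.53 times in stromal controls and 14.5 ± 4.51 times in stretched stromal libraries, but by 4.37 ± 1.89 and 3.62 ± 0.516 times in the immune groups. *Cavin1* exceeded *Cavin2* by 22.3 ± 8.45 and 17.8 ± 7.94 times in stromal and by 7.40 ± 3.13 and 3.07 ± 0.694 times in immune libraries. For both pairs every immune library was below every stromal library of the same treatment. The share of all gene pairs that separate the fractions in this way was not computed. The ratio of *Pacsin2* to *Pacsin3* overlapped between fractions in both treatments. It was 2.155 ± 0.789 and 2.89 ± 1.25 in stromal, and 2.57 ± 2.68 and 4.0 ± 1.05 in immune controls and stretched libraries.

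Marker sums of the cells that carry caveolae differed in both directions. Immune libraries had 8.71% of the stromal fibroblast marker level in control skin and 12.2% in stretched skin, and all 12 markers were called lower in both. They had 489% and 126% of the stromal level of blood endothelial markers, 464% and 217% for 8 lymphatic endothelial markers, and 506% and 207% for 12 adipocyte markers. Of the endothelial genes 8 of 13 blood and 7 of 8 lymphatic markers were called higher in immune libraries in each comparison. In control skin 2 of the 13 blood markers were called lower. Over all genes 26.6% were called higher and 22.8% lower in control skin, and 23.9% and 25.1% in stretched skin. *Pecam1*, an endothelial marker that leukocytes also carry, was at 61.3 ± 30.9 CPM in immune and 6.09 ± 3.32 CPM in stromal controls. *Adipoq*, of the adipocyte list, was at or under 2.57 CPM in every library. Its mean was lower in immune than in stromal controls (0.124 and 0.607 CPM), opposite in direction to the adipocyte sum. In stretched skin its mean was higher in immune libraries (1.39 and 0.555 CPM). Which cells the caveolar reads of the immune fraction came from was not tested.

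**Figure D5:**
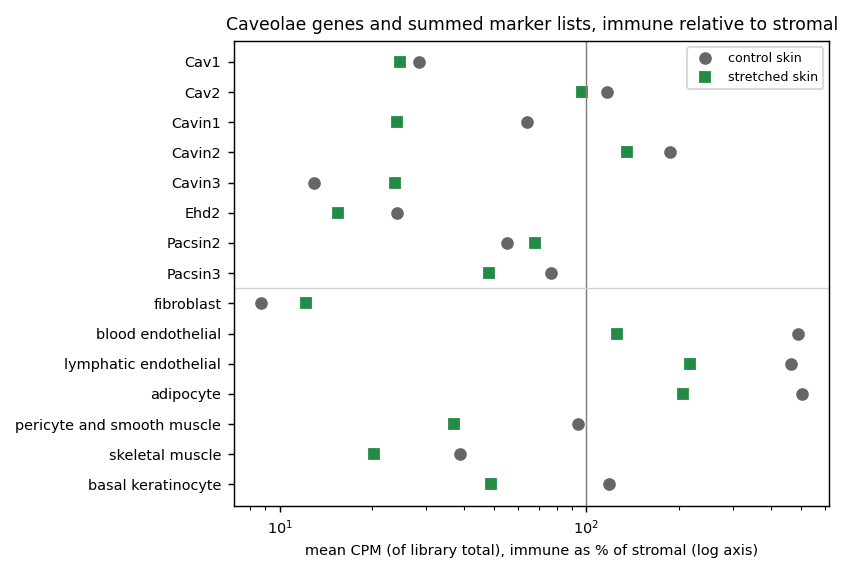
Mean CPM, here scaled to the library total for genes and lists alike, in immune libraries as a percentage of the mean in stromal libraries (log axis; the line marks equal levels) for the 8 genes and for sums of cell type marker lists, in control and stretched skin. On that scale Cav1, Cavin3 and Ehd2 lie between 12.9% and 28.4%. The fibroblast sum lies at 8.71% and 12.2% and the skeletal muscle sum at 38.7% and 20.3%, in control and stretched skin. Both endothelial sums and Cavin2 lie above the line in both.

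Other members of the same families were low or not called after stretch. Of *Cav3*, *Cavin4*, *Ehd1*, *Ehd3*, *Ehd4* and *Pacsin1*, 5 were tested in stromal and 4 in immune cells, with 0 called. *Ehd4*, an endosomal EHD protein, was higher in immune than in stromal cells, by 1.54 ± 0.35 in control and 1.35 ± 0.29 in stretched skin (edgeR adjusted p = 0.00422 and 0.00407), opposite in direction to *Ehd2*. In stretched skin *Pacsin1*, the neuronal pacsin, was also higher (1.86 ± 0.48, 0.00945) and *Ehd3* lower (-1.09 ± 0.39, 0.0389).

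Of 16 partners and residents of caveolae, none was called after stretch in either fraction (medians of 0.15 and 0.01). The smallest stromal p values were those of *Ror1*, a receptor that binds cavin-1 (0.76 ± 0.25, edgeR adjusted p = 0.0849), and *Tgfbr1*, a TGF-beta receptor (0.69 ± 0.23, 0.0875). Counts between fractions, here and for the lists that follow, stand beside those over all genes, of which 22.8% were called lower and 26.6% higher in control skin, and 25.1% and 23.9% in stretched skin. Between fractions 3 were higher and 7 lower in immune cells in each comparison, of 15 tested in control and 16 in stretched skin. The fatty acid receptor *Cd36* was higher by 3.54 ± 0.39 and 2.85 ± 0.45, and *Nos3*, the endothelial nitric oxide synthase that caveolin-1 holds inactive, by 3.25 ± 0.62 and 1.47 ± 0.43. Prostacyclin synthase (*Ptgis*) was lower (-3.99 ± 0.64 and -3.58 ± 0.74), as was the coagulation inhibitor *Tfpi* (-2.90 ± 0.50 and -2.14 ± 0.36). The kinases *Src*, *Fyn* and *Abl1*, and the receptors *Ror1* and *Bmpr1a*, were the other 5 called lower in both.

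Other membrane scaffolds were read beside them. Of 12 clathrin and AP2 coat genes, *Ap2s1*, the small AP2 subunit, was lower after stretch in stromal cells (-1.05 ± 0.24, edgeR adjusted p = 0.0453), and *Clta*, a clathrin light chain, was at -0.82 ± 0.23 (0.0573). The call on *Ap2s1* was lost under many settings, since 0 of the 12 were called in 11 of 19 alternatives. None of the 11 tested was called in immune cells. Between fractions 4 coat genes were higher and 3 lower in control skin, and 4 higher and 4 lower in stretched skin, led by *Picalm* (2.33 ± 0.30 and 2.44 ± 0.34). Of 5 flotillin and stomatin genes, 0 were called after stretch, although all 5 had positive values in immune cells (*Flot2* 0.93 ± 0.23, edgeR adjusted p = 0.148). In control skin 4 of these 5 were lower in immune cells, and in stretched skin *Flot2* alone was called (-1.88 ± 0.22 and -1.23 ± 0.19 in the 2 comparisons). Of 11 membrane repair genes tested, 0 were called after stretch, and 2 were higher and 5 lower in immune cells of control skin, among them *Anxa1* (-2.60 ± 0.48) and *Dysf*, which encodes dysferlin (2.77 ± 0.89).

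Genes whose pattern over the 16 libraries was most like that of *Cav1* were sought among 8946 with a mean of at least 10 CPM. Likeness was the root mean square difference of log2 CPM after each gene's mean was subtracted. The nearest were *Maoa* (0.379), *Atp8b1* (0.39), *Wwtr1* (0.392), *Npdc1* (0.399) and *Tcaf1* (0.403), against a median of 1.36 over all candidates. *Maoa*, for example, was at 49.3 ± 5.58 and 48.0 ± 3.63 CPM in stromal controls and stretched libraries and at 10.2 ± 5.38 and 17.3 ± 10.6 CPM in the immune groups. *Ehd2* ranked 40 and *Cavin3* 156 by likeness to *Cav1*, *Cavin1* 934, *Pacsin3* 1225, *Pacsin2* 2414, *Cav2* 2447 and *Cavin2* 5324. The neck gene *Ehd2* thus followed *Cav1* more closely than *Cav2* did. Among the nearest to *Cavin1* were *Nfia* (0.368), *Loxl2* (0.373), *Cbx6* (0.407) and *Nfib* (0.426), against a median of 1.17. All these libraries share the split between fractions, and depth differed with treatment, so likeness over them is a description.

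Counting limits were small for the abundant genes. The fewest counts in a library were 147 for *Cav1*, 220 for *Cavin1* and 116 for *Cavin3*, but 13 for *Pacsin3* and 15 for *Ehd2*, all in immune libraries. Annotated genes overlap 6 of the 8, with at most 70 reads of their own in a library (*Gm17281*, at *Pacsin3*). Because the strand setting of the counting is not given in the sources used here, reads of antisense partners such as *Gm15581*, at *Cav1* and *Cav2*, cannot be told apart from those of the gene.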

How the data were processed

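The data were raw counts per Ensembl gene for 16 libraries, deposited by the authors as whole numbers with no normalization. Library preparation used SMART-Seq mRNA LP for cDNA and Nextera XT after it, per the labels' protocols. FastQC 0.11.9 and STAR were used with the build mm10, per the submitters' processing notes. The counting tool, the strand rule and the annotation release were not given in the sources used here. Of 55487 gene IDs, 55394 matched GENCODE M21 (GRCm38, the assembly of mm10), which gave symbols, positions and transcript lengths.

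Members and lists were chosen with earlier results of these data known, and all 8 members are named in every comparison. Of the other lists, called genes could be named, or the 3 with the smallest p. The 5 genes most like *Cav1* and *Cavin1* were sought, of which 1 is not reported here.

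Genes were filtered with filterByExpr (minimum count 10, minimum total 15) and compared in edgeR 4.0.16 under R 4.3.3, with TMM scale factors, the quasi-likelihood F test and Benjamini-Hochberg adjustment over all genes. An adjusted p under 0.05 was a call. Stretch and sort comparisons used the libraries of their own groups, and the difference of stretch effects used all 16. Standard errors came from the F statistic. CPM of single genes is TMM-scaled over all 16 libraries unless stated, and list sums are scaled to the library total. Ratios used counts plus 0.5.

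Alternatives were scaling by RLE or by upper quartiles, DESeq2 1.42.0, limma-voom (limma 3.58.1, quality weights), no filter, a minimum of 50 reads in 4 libraries (the stricter filter), 1 fit of all 16 libraries, a block for the number in the title, length and GC offsets, detected genes as a covariate, and omission of libraries. The edgeR tests were also run on simulated counts with 200 changed genes, and the exact test on made-up groups. The simulation held no trends with length or GC content and no libraries with extra receptor-gene reads, so it does not check the tests under these. Chi-square per degree of freedom between libraries of a group was 25.1 to 247, so none was a copy. Counts carry no molecular identifiers, so PCR copies are counted too.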

Additional observations from a re-analysis of the deposited data

Results flagged for a closer look

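*Cavin2* in stretched immune library 2 was at 9.98 CPM, against 45.3 to 51.8 CPM in the other 3 libraries of its group, and the gap took up 0.844 of the group's range, above Dixon's critical value for 4 samples. It was 1 of 32 sets of 4 libraries (8 genes in 4 groups) in which a library stood out in this way, and chance alone gives about 1 in 20. The same library had the lowest summed level of the 8 caveolae genes and of blood endothelial and fibroblast markers, with 33701 CPM on 9 neutrophil genes.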

How the results depend on the processing

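No source says that the title number marks an animal. Of 8 same-numbered pairs, 3 had deviations from their group means correlated over 0.1, and 1 of 8 stromal libraries correlated best with its own number. Each correlation sets stromal against immune cells, so it cannot decide whether 2 libraries share an animal. In the fit with the replicate block, 0 genes were called after stromal stretch, 2 in the difference of stretch effects and 4780 in the sort of stretched skin, where 2 caveolae genes were called. There *Cav1* (-1.96, edgeR adjusted p = 0.0855), *Cavin3* (-1.86, 0.0861) and *Pacsin3* (-0.80, 0.321) were not called, and the block changed no other call on the 8 genes. No number is shared by control and stretched libraries of 1 fraction, so no paired analysis within a fraction was possible.

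Over all comparisons and alternatives, each omission counted once, 688 log2 fold changes of caveolae genes kept direction and side of the threshold, 85 turned sign, 15 newly passed and 12 no longer passed. Of the ratios to *Cav1*, 111 kept both and 15 turned sign. The cause of each change below was not tested. Caveolae genes called after stromal stretch numbered 1 (*Cavin3*) with DESeq2, limma-voom, no filter and the stricter filter, and 0 to 1 with 1 library left out. Those called after immune stretch numbered 1 (*Pacsin2*) with limma-voom and with all 16 libraries. In the sort of controls limma-voom called 7 caveolae genes, with 8814 of 15142 genes called.

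Genes called after stromal stretch numbered 2312 with DESeq2, 3599 with limma-voom, 2115 with no filter and 1378 with the stricter filter. They numbered 0 with all 16 libraries, 4 when offsets removed length and GC trends, 1 with detected genes as a covariate, and 0 without stretched libraries 7 and 8. These 2 and immune control 4 had the highest shares of reads on olfactory and vomeronasal receptor genes. They are the 3 libraries omitted from the difference of stretch effects below. With 1 library left out, genes called after stromal stretch numbered 0 to 1589, with 0 on omission of control 1, 2 or 3 or of stretched library 7 or 8. After immune stretch they numbered 781 with DESeq2, 888 with limma-voom, 667 with all 16 libraries and 45 without immune library 2, and 0 to 45 with 1 library left out. For the difference of stretch effects they numbered 25 with upper-quartile factors, 1625 with DESeq2, 1453 with limma-voom, 3924 with no filter, 120 with the stricter filter and 114 without immune library 2, and 0 to 1495 with 1 library left out. In the sort of stretched skin they numbered 4860 with the covariate and 5402 without stromal libraries 7 and 8. RLE and upper-quartile factors moved the median of all genes to 0.13 and 0.15 in the sort of controls.

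Log2 fold changes after stromal stretch turned sign for *Pacsin3* (0.0014 with upper-quartile factors, 0.081 with the replicate block, 0.035 with length and GC offsets, 0.47 with the covariate, 0.32 with stretched libraries 7 and 8 omitted), *Cavin1* (0.039 with the replicate block), *Cavin2* (-0.32 with the replicate block, -0.0089 with length and GC offsets, -0.19 with the covariate, -0.061 with stretched libraries 7 and 8 omitted), *Pacsin2* (-0.38 with the replicate block) and *Ehd2* (-0.042 with length and GC offsets, -0.29 with the covariate, -0.19 with stretched libraries 7 and 8 omitted). Log2 fold changes after immune stretch turned sign for *Cavin2* (0.12 with limma-voom, 0.044 with no filter, 0.082 with all 16 libraries, 0.21 with immune library 2 omitted), *Ehd2* (0.41 with limma-voom, 0.14 with no filter, 0.19 with all 16 libraries, 0.0024 with length and GC offsets, 0.049 with the covariate, 0.18 with immune control 4 omitted, 0.16 with immune library 2 omitted), *Pacsin3* (0.16 with limma-voom, 0.19 with the replicate block) and *Cavin3* (-0.12 with length and GC offsets). Log2 fold changes in the difference of stretch effects turned sign for *Cav2* (-0.094 with RLE factors, -0.13 with upper-quartile factors, -0.10 with DESeq2, -0.0023 with stricter filter, -0.10 with the covariate, -0.34 with 3 libraries omitted), *Cav1* (-0.029 with upper-quartile factors), *Cavin2* (0.10 with limma-voom, 0.27 with the replicate block, 0.061 with the covariate, 0.11 with immune library 2 omitted), *Ehd2* (0.30 with limma-voom, 0.15 with length and GC offsets, 0.38 with the covariate, 0.45 with 3 libraries omitted) and *Pacsin3* (0.67 with limma-voom, 0.11 with the replicate block). Log2 fold changes in the sort of controls turned sign for *Cav2* (-0.11 with no filter, -0.55 with the replicate block, -0.47 with length and GC offsets). Log2 fold changes in the sort of stretched skin turned sign for *Cav2* (-0.013 with no filter, -0.52 with length and GC offsets, -0.19 with stromal libraries 7 and 8 omitted). For log2 fold changes in the difference of stretch effects, the range with 1 library left out was -0.26 to 0.66 for *Cav1*, -0.21 to 0.65 for *Cav2*, -0.44 to 0.18 for *Cavin2*, -0.48 to 0.11 for *Ehd2* and -0.42 to 0.10 for *Pacsin3*. For log2 fold changes after immune stretch, the range with 1 library left out was -0.021 to 0.90 for *Cav1*, -0.34 to 0.22 for *Cavin2*, -0.29 to 0.83 for *Cavin3* and -0.34 to 0.21 for *Ehd2*. For log2 fold changes in the sort of controls, the range with 1 library left out was -0.69 to 0.33 for *Cav2*. For log2 fold changes in the sort of stretched skin, the range with 1 library left out was -0.25 to 0.37 for *Cav2*. For log2 ratios to *Cav1* after immune stretch, the range with 1 library left out was -0.073 to 0.33 for *Cav2*, -0.23 to 0.10 for *Cavin3* and -0.53 to 0.0052 for *Ehd2*. For log2 fold changes after stromal stretch, the range with 1 library left out was -0.082 to 0.32 for *Cavin2* and -0.23 to 0.11 for *Pacsin3*. For log2 ratios to *Cav1* after stromal stretch, the range with 1 library left out was -0.51 to 0.19 for *Cavin2*, -0.27 to 0.22 for *Ehd2* and -0.16 to 0.23 for *Pacsin2*.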
